A study of Mus musculus with 6 samples.

Results

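The genes described here are 9 markers by which Kupffer cells are told from other cells of the liver: Clec4f, Vsig4, Timd4, Cd5l, Marco, Folr2, Spic, Id3 and Kcna2. They were named one by one as known Kupffer cell markers, by a rule that sets no threshold on measured values, although earlier results of these data were known when the list was made. The table holds 17119 gene symbols. All 9 were in the table, and all 9 passed the filter on low counts that left 12706 genes for testing. RNA came from whole liver of mice given HFHCD, a feed rich in fat and cholesterol, over 12 weeks, in 6 libraries. The 3 heterozygous livers (Clec4f-iCre;Cebpbfl/+) had 1 floxed allele of Cebpb, and the 3 wild-type livers (Clec4f-iCre;Cebpb+/+) were from littermates. Every animal of both groups thus carried iCre, and no group without iCre or on another diet is part of the comparison. The Clec4f promoter directs the recombinase to Kupffer cells, so that the design leaves both Cebpb alleles in hepatocytes and other liver cells. Clec4f is therefore both a marker measured here and the gene whose promoter drives the recombinase. How many iCre copies an animal carried, and whether iCre alters the Clec4f locus, is not given in the sources used here, and neither is age, sex or whether a library holds 1 animal. The Y-linked genes Ddx3y and Uty had 459 to 612 and 201 to 233 reads per library, so male tissue was present in all 6. The genotype labels of replicates 2 and 3 in both groups read Clec5f and Clec6f in place of Clec4f, and the series design, which names Clec4f, was followed.

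Kupffer cells are macrophages that live in the sinusoids of the liver, where they take up particles, dying cells and old red blood cells from the portal blood. Their identity is held by signals from neighbouring endothelial, stellate and liver parenchymal cells, among them CSF1, DLL4 and ligands of the TGF-β and BMP family, which act through transcription factors such as LXRα, ID3 and SPIC. In fatty liver disease resident Kupffer cells can be lost, and macrophages derived from monocytes settle in the emptied niche and take on part of the same gene programme, Clec4f earlier than Timd4. C/EBPβ, the product of Cebpb, is a transcription factor of the myeloid lineage and of hepatocytes.

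The sequences before the start sites of 4 members are shown because these are the members that 1 of the tests, DESeq2, called lower in the heterozygous livers, and because the promoter of Clec4f drives the recombinase. They are from RefSeq, build GRCm38.p6, and each run ends at the base before the RefSeq start site, except that of Clec4f, which stops where the first exon annotated by GENCODE begins. Capitals mark matches on either strand to GAGGAAG, a core recognised by the macrophage factor PU.1, or to TGGGAA, a core recognised by RBPJ, the factor of Notch signalling.
Clec4f (chr6:83656188-83656366, minus strand): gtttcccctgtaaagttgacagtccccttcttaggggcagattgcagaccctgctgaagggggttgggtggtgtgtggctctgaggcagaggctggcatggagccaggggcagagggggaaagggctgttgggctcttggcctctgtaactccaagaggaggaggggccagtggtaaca
Marco (chr1:120505025-120505274, minus strand): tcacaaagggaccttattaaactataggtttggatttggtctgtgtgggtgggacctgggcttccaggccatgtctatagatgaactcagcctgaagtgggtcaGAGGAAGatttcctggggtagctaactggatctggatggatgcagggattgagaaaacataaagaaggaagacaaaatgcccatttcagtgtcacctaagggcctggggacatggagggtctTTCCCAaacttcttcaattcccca
Cd5l (chr3:87357631-87357880, plus strand): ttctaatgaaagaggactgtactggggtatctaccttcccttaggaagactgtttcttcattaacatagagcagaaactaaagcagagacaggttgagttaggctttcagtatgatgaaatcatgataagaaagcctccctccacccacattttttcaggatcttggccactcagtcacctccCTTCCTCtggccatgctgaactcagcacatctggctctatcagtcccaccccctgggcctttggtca
Spic (chr10:88683024-88683273, minus strand): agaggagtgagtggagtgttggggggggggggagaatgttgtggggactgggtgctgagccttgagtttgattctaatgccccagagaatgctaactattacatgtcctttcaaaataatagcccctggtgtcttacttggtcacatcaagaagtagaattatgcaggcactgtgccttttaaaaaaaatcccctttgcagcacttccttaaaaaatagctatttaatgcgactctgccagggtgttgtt

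RefSeq promoters were found for all 9 members, 10 in all since Folr2 had 2. In the 250 bases before the start site, the C/EBP core TTGCNNAA was found in 0 of the 9 genes, against 9.56% of 32851 promoters of the same length. GAGGAAG was found in Marco, Cd5l and Id3, that is 3 of 9 genes, against 10.6% of promoters. For Id3 and Kcna2 all 250 bases lay past the start of a GENCODE exon, so the Id3 match was not upstream of that start. TGGGAA was found in Marco and Clec4f, against 21.6%. In Marco the GAGGAAG match began 146 bases before the start site, on the strand of the gene, and the TGGGAA match lay on the opposite strand, 24 bases before it. The match in Cd5l began 67 bases before the start site on the opposite strand. The match in Clec4f began 35 bases before the RefSeq start site and lay within the GENCODE exon, beyond the printed bases. No 2 matches overlapped. These are matches of letters only.

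Library totals ran from 16895322 to 17750755 counts. Levels are in CPM, counts scaled to a common library total with TMM factors. A log2 fold change is that of heterozygous over wild-type livers, given ± its standard error. Liver identity was evident from Alb, the albumin gene of hepatocytes, at 66248 to 95207 CPM. Cebpb, the floxed gene, measured 506, 308 and 340.4 CPM in wild-type livers (replicates 1, 2 and 3) against 204, 498 and 269 CPM in heterozygous livers. The groups overlapped (log2 fold change −0.25 ± 0.37, edgeR adjusted p = 0.864), and since hepatocytes express Cebpb too, whole liver checked the genotype labels only weakly. In whole liver a smaller number of Kupffer cells and less of a transcript in each cell cannot be told apart.

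Of the 9 Kupffer cell markers 8 had lower fitted levels in the heterozygous livers, by very different amounts, from log2 fold changes of −2.98 for Marco and −2.81 for Clec4f to −0.25 for Id3, and Folr2 had a positive one. In 6 of the 9 genes (Clec4f, Marco, Spic, Cd5l, Kcna2 and Vsig4) every heterozygous library was below every wild-type library, while 11.3% of all tested genes showed this and 7.05% the opposite. The groups overlapped in Timd4, Id3 and Folr2. Over all tested genes edgeR called 0 of the 9 members at an adjusted p of 0.05, where 0.559% of genes were called lower and 0.0236% higher. The count was 6 of 9 at an unadjusted p under 0.05, where the share of all genes called lower was 9%. DESeq2 called 4 of the 9 lower (Clec4f, Marco, Cd5l and Spic), where it called 3.36% of all genes lower and 0.625% higher. limma-voom called 0 of the 9 and 0.354% of all genes lower. Without heterozygous replicate 1 or 2 edgeR called 0 genes in the whole table (798 and 1086 lower genes at an unadjusted p under 0.05), so every edgeR call named here is lost then. The median log2 fold change of the members was −1.22, against 0.00481 for all tested genes, and 8 of 9 were negative, against 49% of all genes.

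**Figure D1:**
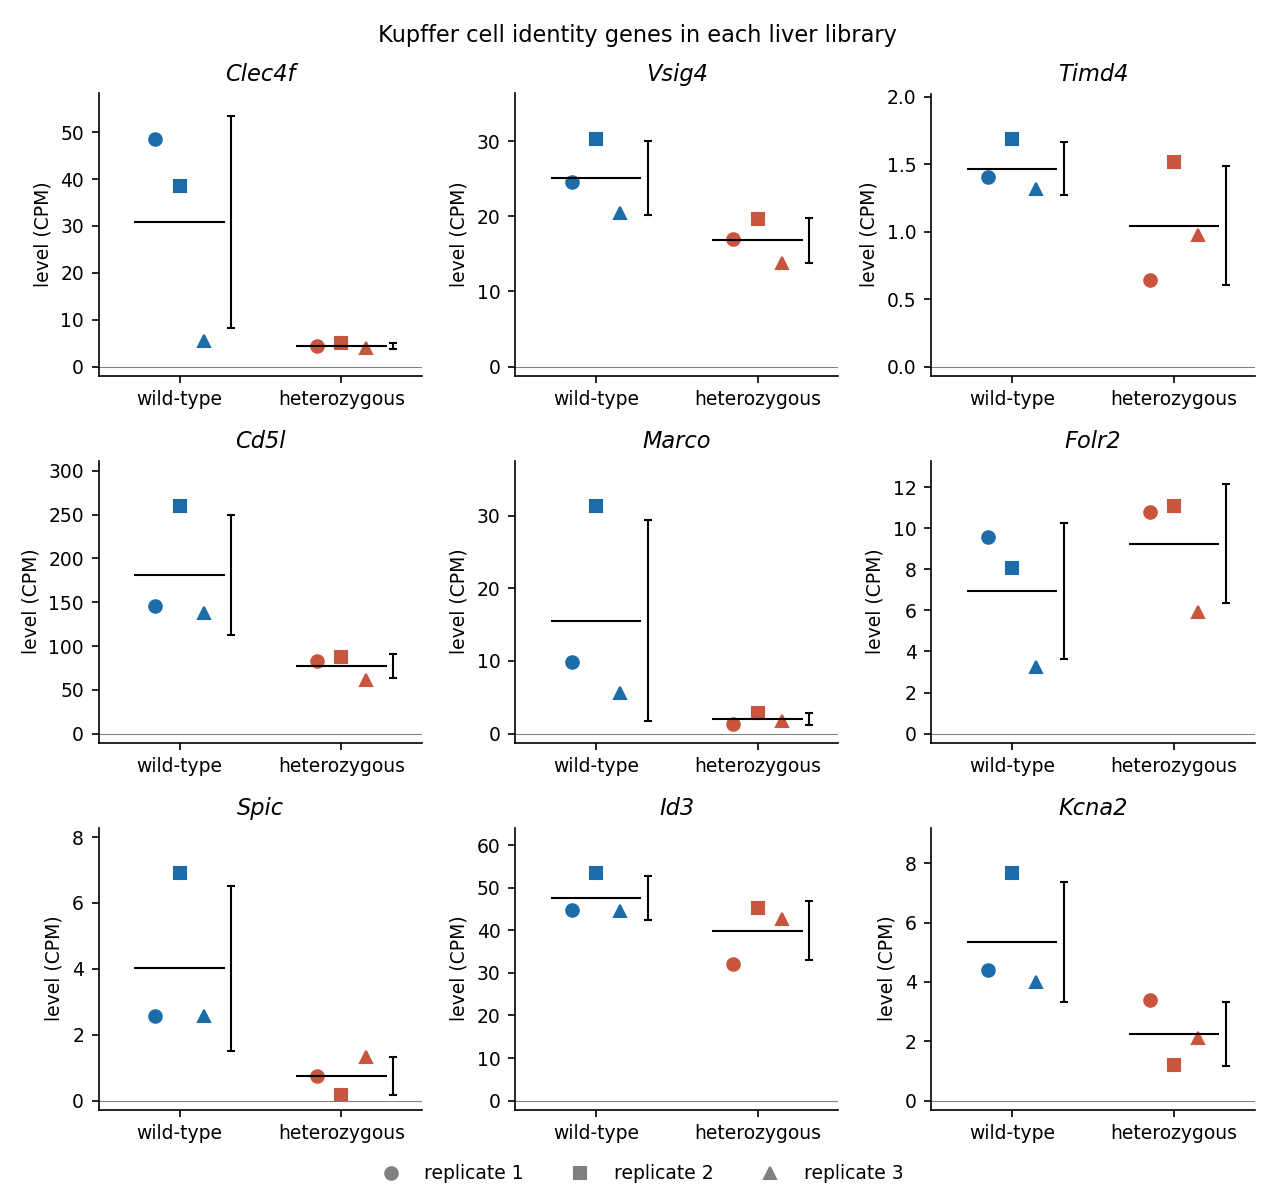
Level of each Kupffer cell identity gene in CPM (linear axis from 0) in the 3 wild-type (blue) and 3 heterozygous (red) liver libraries. Point shapes are replicate numbers, horizontal lines are group means, and error bars beside them are the SD of 3 libraries. Clec4f in wild-type replicate 3 sits with the heterozygous libraries, at 5.42 CPM, and the groups of Timd4, Id3 and Folr2 overlap.

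The 5 surface receptors held the most negative fold change, that of Marco, and the only positive one, that of Folr2. Clec4f encodes a C-type lectin that binds galactose-bearing glycans and, in mice, is restricted to Kupffer cells. Its level was 48.6, 38.5 and 5.42 CPM in wild-type livers against 4.31, 4.97 and 3.90 CPM in heterozygous livers, here and throughout in the order of replicates 1, 2 and 3. The first and second wild-type libraries stood far above the other 4, and the third was only 0.451 CPM above the highest heterozygous library. At this depth those 2 libraries could not be told apart, since the 95% counting intervals were 4.40 to 6.60 CPM for the 99 reads of wild-type replicate 3 and 3.95 to 6.16 CPM for the 82 reads of heterozygous replicate 2. The group means were 30.8 ± 22.6 and 4.39 ± 0.538 CPM (SD, n = 3), with a log2 fold change of −2.81 ± 0.85 (95% interval −5.00 to −0.62, edgeR adjusted p = 0.260). Clec4f was called when wild-type replicate 3 was left out (−3.31, edgeR adjusted p = 0.000607), a fit that called 0.148% of all genes lower, and by DESeq2 (−2.80, adjusted p = 0.0229). Leaving out any other library gave edgeR adjusted p-values up to 0.662.

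Marco encodes a scavenger receptor with a collagen-like stalk that binds bacteria and modified lipoproteins. It measured 9.82, 31.3 and 5.53 CPM in wild-type and 1.28, 2.85 and 1.78 CPM in heterozygous livers. Wild-type replicate 2 stood high, at 5.67-fold the level of wild-type replicate 3, but even the lowest wild-type library (101 reads, counting interval 4.50 to 6.72 CPM) was apart from the highest heterozygous library (47 reads, 2.09 to 3.79 CPM). The log2 fold change of −2.98 ± 0.78 was not called by edgeR (95% interval −4.91 to −1.05, adjusted p = 0.176), and 0.0315% of tested genes had a more negative one. Without wild-type replicate 2 the difference shrank to −1.96, with an edgeR adjusted p of 0.126. DESeq2 gave −2.97 with an adjusted p of 0.00794.

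Vsig4, the complement receptor CRIg, captures bacteria coated with C3 fragments from the blood. Its levels were 24.6, 30.3 and 20.4 CPM in wild-type and 17.01, 19.7 and 13.8 CPM in heterozygous livers. The groups did not overlap, but the nearest libraries lay within each other's counting error. The means of 25.1 ± 4.96 and 16.8 ± 2.96 CPM (SD, n = 3) differed 1.49-fold (log2 fold change −0.58 ± 0.18, edgeR adjusted p = 0.185). Timd4, or TIM-4, binds phosphatidylserine on dying cells and is used to mark Kupffer cells of embryonic origin, since macrophages newly derived from monocytes lack it. It was close to the lower limit of what these libraries could measure, with 11 to 31 reads each. The levels were 1.40, 1.69 and 1.31 CPM in wild-type and 0.641, 1.51 and 0.975 CPM in heterozygous livers. Heterozygous replicate 2 lay inside the wild-type range, and the log2 fold change of −0.49 ± 0.38 had a 95% interval from −1.35 to 0.36 (edgeR adjusted p = 0.675).

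Folr2, a folate receptor of resident macrophages in several tissues, had the only positive difference. It measured 9.58, 8.05 and 3.23 CPM in wild-type and 10.8, 11.1 and 5.91 CPM in heterozygous livers. The third replicate was the lowest of its group on both sides, and the groups overlapped. The log2 fold change was 0.41 ± 0.42 (95% interval −0.57 to 1.40, edgeR adjusted p = 0.775) and fell to 0.07 without wild-type replicate 3. In the GENCODE annotation an exon of Gm10602 on the opposite strand overlaps Folr2, and the strand setting of the counting is not given in the sources used here. None of the other 8 members has such an overlap.

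**Figure D2:**
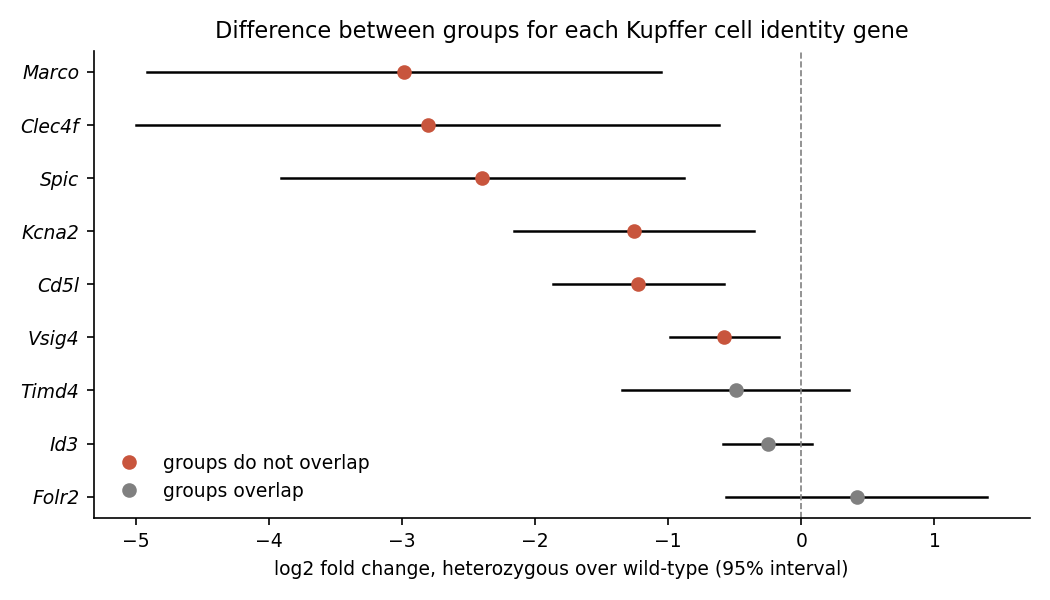
Log2 fold change of each member, heterozygous over wild-type, from edgeR with its 95% interval. Red points are genes whose groups do not overlap and grey points are those whose groups do. The intervals of the 6 red genes lie below 0 before adjustment for the number of genes tested, and none of the 9 passed after it.

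Cd5l was the most abundant member and the one measured with the most reads. It encodes AIM, a secreted protein of macrophages that keeps them from apoptosis and circulates in serum. The levels were 145, 259.9 and 138 CPM in wild-type and 83.4, 87.5 and 61.6 CPM in heterozygous livers. Wild-type replicate 2 stood high, and the other wild-type libraries were still clear of all heterozygous ones beyond counting error (132.6 to 143 CPM for the lowest wild-type, 83.1 to 92.2 CPM for the highest heterozygous library). Means of 181 ± 68.4 and 77.5 ± 13.9 CPM (SD, n = 3) gave a log2 fold change of −1.22 ± 0.27, with a 95% interval from −1.86 to −0.58. The adjusted p was 0.103 in edgeR and 0.000190 in DESeq2. With 1 library left out, the fold change stayed between −1.39 and −0.87 and the edgeR adjusted p between 0.0936 and 0.303.

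The groups were apart in Spic and overlapped in Id3, the members that encode transcription regulators. SPIC, induced by haem, directs the programme of macrophages that recycle iron. Spic measured 2.56, 6.91 and 2.57 CPM in wild-type and 0.757, 0.182 and 1.32 CPM in heterozygous livers. All heterozygous libraries were below all wild-type ones, with 3 to 23 reads against 42 to 127. The log2 fold change was −2.40 ± 0.65 (95% interval −3.91 to −0.88), with an adjusted p of 0.152 in edgeR and 0.00323 in DESeq2. It was −1.75 without wild-type replicate 2 and −3.07 without heterozygous replicate 3, with edgeR adjusted p-values of 0.304 and 0.112. ID3 blocks the DNA binding of E proteins and is needed for the development of Kupffer cells, but it is also induced by BMP signals in other liver cells. Id3 measured 44.9, 53.5 and 44.5 CPM in wild-type and 32.1, 45.2 and 42.6 CPM in heterozygous livers. Heterozygous replicate 2 lay inside the wild-type range, and the log2 fold change of −0.25 ± 0.15 had a 95% interval from −0.59 to 0.08 (edgeR adjusted p = 0.543).

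Kcna2 encodes a voltage-gated potassium channel known mainly from neurons, which in liver marks Kupffer cells. It measured 4.39, 7.67 and 3.99 CPM in wild-type and 3.38, 1.21 and 2.12 CPM in heterozygous livers. The groups did not overlap, although wild-type replicate 3 and heterozygous replicate 1 lay within each other's counting error. The log2 fold change was −1.26 ± 0.40 (95% interval −2.16 to −0.35), with an adjusted p of 0.192 in edgeR and 0.0561 in DESeq2. Of the 6 genes whose groups did not overlap, the counting intervals of the nearest libraries were apart in 2, Cd5l and Marco, and overlapped in 4, Clec4f, Spic, Vsig4 and Kcna2. In Spic the intervals overlapped only at their ends. They were 1.85 to 3.46 CPM around 2.56 CPM and 0.836 to 1.98 CPM around 1.32 CPM, so neither level lay within the other's interval. Overlap of 2 intervals does not by itself show that the libraries agree.

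The wild-type livers varied among themselves in a way that differed from gene to gene. Of the 9 members, 7 were highest in wild-type replicate 2 and 8 had wild-type replicate 3 as the lowest wild-type library. Clec4f in wild-type replicate 1 was 8.96-fold its level in wild-type replicate 3, and Folr2 2.97-fold, the next largest ratio between these libraries, while Marco differed 1.78-fold. In the other 6 members the ratio ran from 0.996 in Spic to 1.21 in Vsig4. The heterozygous livers were more alike in Clec4f, with a 1.27-fold range.

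Compared per length, as CPM per kilobase of annotated exon, Cd5l was the most abundant member in wild-type livers at 88.9 ± 33.6. It was followed by Id3 (26.6 ± 2.84), Vsig4 (16.9 ± 3.34), Clec4f (12.5 ± 9.13), Marco (8.08 ± 7.18), Folr2 (4.50 ± 2.14), Spic (1.05 ± 0.653), Timd4 (0.675 ± 0.0897) and Kcna2 (0.450 ± 0.169), each as mean and SD over 3 libraries. The ranges over libraries separated Cd5l, Id3 and Vsig4 from each other, and Folr2 from Spic. Those of Vsig4, Clec4f and Marco overlapped, as did those of Marco and Folr2, and of Spic, Timd4 and Kcna2 in turn. In the heterozygous livers Clec4f (1.78 ± 0.218) and Marco (1.02 ± 0.416) had lower means than Folr2 (5.99 ± 1.88). Exon lengths came from a GRCm38 annotation and not from the one used for counting, so this order is approximate.

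General macrophage genes, which recruited macrophages express as well, were lower too. Of 16 such genes edgeR called 9 lower and 0 higher, against 0.559% lower and 0.0236% higher of all tested genes. DESeq2 called 13 of the 16 lower, against 3.36% of all genes. The median log2 fold change of the 16 was −1.18. The edgeR count was 2 without wild-type replicate 1, 1 without wild-type replicate 2, 2 without wild-type replicate 3, 0 without heterozygous replicate 1 or 2, and 9 without heterozygous replicate 3. The genes called were Laptm5, C1qb, Lyz2, Fcgr1, Cd68, Ctss, Spi1, C1qa and Mpeg1. Laptm5, a lysosomal membrane protein of blood cells, fell 2.29-fold (62.5 ± 8.78 to 27.3 ± 2.46 CPM, SD, n = 3, edgeR adjusted p = 0.0308). Lyz2, which encodes a myeloid lysozyme, fell 3.20-fold (262 ± 81.2 to 81.9 ± 11.6 CPM, SD, n = 3, edgeR adjusted p = 0.0336), and C1qb, a chain of complement C1q, fell 2.28-fold (134 ± 29.7 to 58.9 ± 6.53 CPM, edgeR adjusted p = 0.0324). The summed level of the 16 genes ran from 1262 to 1937 CPM in wild-type livers and from 603 to 735 CPM in heterozygous livers. It was highest in wild-type replicate 2, as were 7 of the 9 members. The part of macrophage content in the members' differences was not tested.

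Each member was then set against the mean log2 level of these 16 genes in the same library. In this ratio library scaling cancels, except through the prior count of 2, which matters for genes with few reads. The differences between groups ran from −1.46 for Marco to 1.63 for Folr2 in log2. The 16 genes had a median log2 fold change of −1.18, so a member that fell less than they did gains a higher ratio. Id3, Vsig4 and Timd4 themselves had negative log2 fold changes (−0.25, −0.58 and −0.49), and the groups of Folr2 overlapped in CPM. Id3 and Folr2 were relatively higher in every heterozygous library, by 0.88 and 1.63, and the nearest libraries of the groups were 0.602 and 0.156 apart. Vsig4 (0.57) and Timd4 (0.63) were also higher in each heterozygous library, and Marco (−1.46) and Spic (−1.22) lower. In these 4 the nearest libraries were only 0.00741 to 0.0928 apart in log2, so that the separation hangs on a small margin. Kcna2 (−0.13) and Cd5l (−0.04) overlapped and lay near 0, so no direction is given for them. Clec4f overlapped as well, with a difference of −1.14. Its relative level was −0.02, −0.96 and −3.13 in wild-type livers against −2.38, −2.37 and −2.78 in heterozygous livers, so wild-type replicate 3 was the lowest of all 6 libraries, and without it the difference was −2.02 and the groups no longer overlapped. Leaving that library out gave −1.90 for Marco and 1.27 for Folr2. These are descriptions of 3 libraries against 3, with no test.

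**Figure D3:**
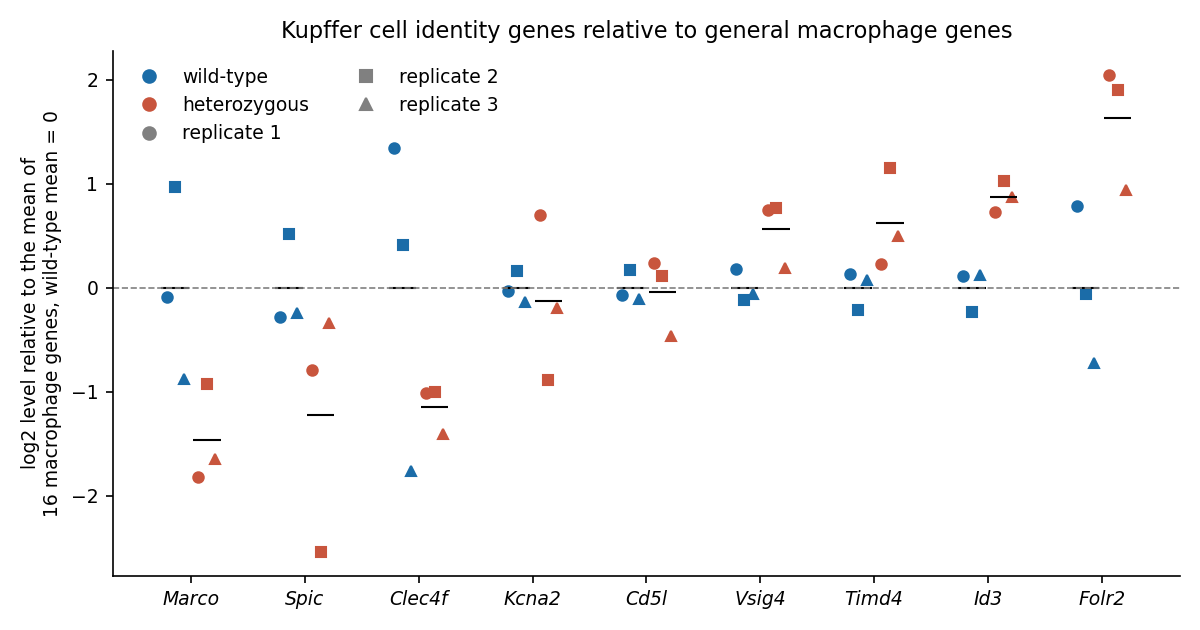
Log2 level of each member minus the mean log2 level of 16 general macrophage genes in the same library, set to 0 at the wild-type mean of each member. Blue points are wild-type and red points heterozygous libraries, shapes are replicate numbers and lines are group means. The heterozygous points of Marco and Spic lie below the wild-type ones and those of Vsig4, Timd4, Id3 and Folr2 above them, by a small margin except in Id3 and Folr2, and Clec4f overlaps through wild-type replicate 3. A higher ratio need not mean that the member's own level rose, since the 16 reference genes were lower.

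For other genes enriched in Kupffer cells the fold changes were uneven. Of 15 listed, 14 were tested, and 2 were called lower and 0 higher by edgeR (0.559% and 0.0236% of all tested genes). The median log2 fold change was −0.24. The 4 with the smallest edgeR p, Hmox1 (−1.33), Il18bp (−1.23), Slc16a9 (−1.12) and Sdc3 (−0.96), lay near the members' median of −1.22. Of the 14, 10 were negative and 4 positive. The part of other liver cells in these levels was not tested. The number called by edgeR was 1 without wild-type replicate 2, and 0 without wild-type replicate 1 or heterozygous replicate 1 or 2. The genes called were Hmox1, the haem oxygenase, which fell 2.51-fold (63.7 ± 16.5 to 25.3 ± 1.92 CPM, SD, n = 3), and Il18bp, the secreted inhibitor of interleukin 18, which fell 2.35-fold, both at an edgeR adjusted p of 0.0308. Slc16a9, a carrier of the monocarboxylate family, lay at 4.57 ± 1.11 and 2.10 ± 0.146 CPM (edgeR adjusted p = 0.0810). Cd163, the scavenger receptor for haemoglobin, had too few reads to be tested, at 0.172 to 1.16 CPM. Nr1h3, the gene of LXRα, measured 101 to 124 CPM in wild-type and 101 to 112 CPM in heterozygous livers, and was picked after its values were seen. Hepatocytes express Nr1h3 too.

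Among 12 transcription factor genes of the Kupffer cell programme, edgeR called 1 lower (0.559% of all tested genes). That was Spi1, the gene of PU.1 and also one of the 16 general macrophage genes, which fell 2.46-fold (19.4 ± 3.28 to 7.85 ± 2.03 CPM, SD, n = 3, edgeR adjusted p = 0.0463). Irf8, which acts with PU.1 in myeloid cells, lay at 25.4 ± 1.22 and 13.3 ± 3.82 CPM (edgeR adjusted p = 0.0728). For the signals of the niche, 8 of 9 ligand genes and 8 of 8 receptor genes were tested and edgeR called 0 of either list. The unadjusted p was under 0.05 for 3 lower and 1 higher ligand and 2 lower receptors. Median log2 fold changes were −0.19 for ligands and −0.07 for receptors, and each list had 5 negative and 3 positive genes. The ligands and receptors described next had the smallest p in their list, so they do not stand for the whole lists. Bmp2, a ligand made by sinusoidal endothelium, lay at 7.31 ± 1.49 and 15.3 ± 3.82 CPM and was higher in every heterozygous library (edgeR adjusted p = 0.0639). Tgfb1, the gene of TGF-β1, lay at 18.5 ± 1.76 and 12.0 ± 2.09 CPM (edgeR adjusted p = 0.112). Il34, a second ligand of the CSF1 receptor, lay at 4.52 ± 0.146 and 2.49 ± 0.826 CPM, and the receptor gene Csf1r at 129 ± 50.9 and 49.2 ± 4.82 CPM (edgeR adjusted p = 0.183 and 0.0688). Acvrl1, a receptor for BMP9 and BMP10, lay at 9.10 ± 2.05 and 4.67 ± 0.677 CPM (edgeR adjusted p = 0.0869).

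Markers of other myeloid cells had negative fold changes, as most members did, and those of the remaining cell types varied. All 10 monocyte and recruited macrophage genes were negative, with the median at −1.27 in log2, and so were all 8 lipid-associated macrophage genes, with the median at −0.83. edgeR called 1 gene of each list lower, Ccr2 and Lgals3, where 0.559% of all tested genes were called lower. Medians were −0.41 for 10 genes of stellate cells, 0.27 for 11 of sinusoidal endothelium and −0.01 for 8 of hepatocytes, and edgeR called 0 in these 3 lists. At an unadjusted p under 0.05 there were 8 lower monocyte and recruited macrophage genes and 5 lower lipid-associated macrophage genes. There were also 6 lower stellate genes, 1 lower and 3 higher endothelial genes and 0 hepatocyte genes. Of all 12706 tested genes 1143 (9%) were lower and 534 higher at that threshold. Of 9 lymphocyte genes 8 were tested and 0 called (3 lower at an unadjusted p under 0.05). Of 7 neutrophil genes 3 were tested (all 3 lower at an unadjusted p under 0.05) and 1, Csf3r, was called lower by edgeR. All 8 lymphocyte genes were negative, with the median at −0.60, and all 3 neutrophil genes, with the median at −1.71. The part of these cells in the levels of the members was not tested.

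**Figure D4:**
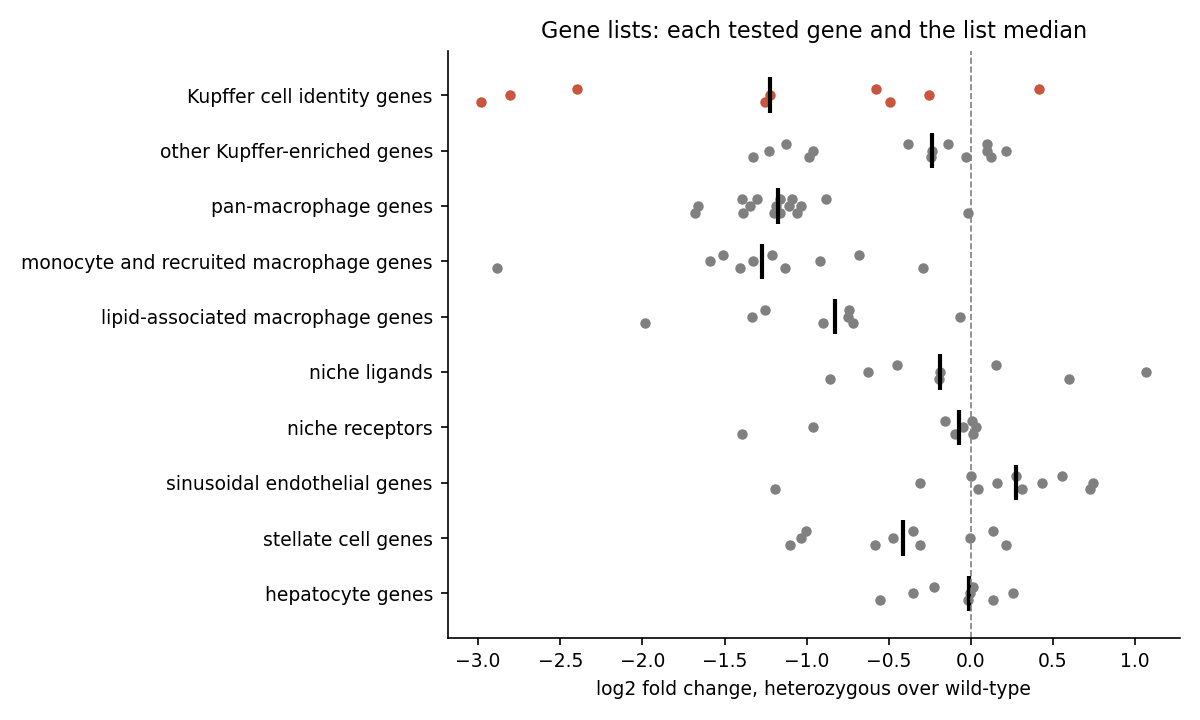
Log2 fold change, heterozygous over wild-type, of every tested gene in 10 lists (points) with the list median (black bar). The Kupffer cell identity genes, in red, spread from −2.98 to 0.41, around a median of −1.22, and the pan-macrophage genes have their median at −1.18.

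The tested genes whose log2 levels followed Clec4f most closely over the 6 libraries, among 12146 that are no members and have a mean log2 CPM of at least 0, were Map2k1 (Pearson r = 0.98), Mis12, Zfp451, Ppp1cc and Bak1 (each r = 0.97). These differed far less than Clec4f itself, with log2 fold changes from −0.37 for Bak1 to −0.09 for Zfp451. The libraries share a tissue and a diet and fall into 2 groups, so such a likeness is given as a description.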

How the data were processed

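Whole-liver RNA was taken up in TRIzol, and 500 ng per sample went into stranded poly(A) libraries, per the labels' protocols. The authors deposited raw counts, whole reads per gene symbol in 1 column per library, with no normalization. Trimmomatic 0.36, HISAT2 2.2.1.0, HTSeq 0.9.1 and build GRCm39 are named in the submitters' processing notes; for annotation and strand setting, the sources used here give nothing. Columns were matched to samples by title. No 2 libraries agreed within counting noise (chi-square per degree of freedom 22.1 to 108 over 15 pairs). No label states that each came from a separate animal, so the p-values measure the variation among these libraries, part of which may be technical.

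In R 4.3.3, edgeR 4.0.16 (filterByExpr, TMM, robust glmQLFit and glmQLFTest, no covariates) was fitted to all genes, with Benjamini-Hochberg adjustment over all tested genes at 0.05. Relative levels used log2 CPM with a prior count of 2. Counting intervals are exact Poisson 95% intervals and cover counting error only. Alternatives were other scalings and filters, a non-robust fit, DESeq2 1.42.0, limma-voom (limma 3.58.1), the replicate number as a block and each library left out. An added alternative for the relative levels is not reported here. The fit was tested on simulated data.

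Members and lists were chosen with earlier results of these data known. Named genes were all 9 members, up to 4 genes of each other list with the smallest p plus those called, Cebpb, Alb and the 5 genes most like Clec4f, though not every gene so admitted is described. Cd163, Nr1h3, C6, Fcna, Moxd1 and Hbb-bt fall outside this rule and were named after their values were seen. Promoters and motifs are from a RefSeq table of GRCm38.p6, and exon lengths from GENCODE M21 on GRCm38.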

Additional observations from a re-analysis of the deposited data

How the results depend on the processing

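Members kept the sign of their difference in all 14 alternatives, though with a library left out the lack of overlap fixes the direction of 6 of them. The number of members called, 0 in edgeR, was 4 in DESeq2, 0 to 1 with 1 library left out (1 without wild-type replicate 3, Clec4f) and 0 in the other alternatives. Over all genes, 74 calls became 37 with upper-quartile scaling, 48 with at least 1 CPM in 3 libraries, 211 with no filter on low counts, 20 with a non-robust fit, 46 in limma-voom, 523 in DESeq2, and 0 to 122 with 1 library left out. The 2 other Kupffer-enriched genes called became 4 in DESeq2 and 0 to 2 with 1 library left out. The 9 pan-macrophage calls became 4 with upper-quartile scaling, 2 with a non-robust fit and 0 to 9 with 1 library left out, 0 without heterozygous replicate 1 or 2. The cause was not tested. Cebpb changed sign without wild-type replicate 1 (0.0159) and without heterozygous replicate 1 (0.00626), and ranged from −0.70 to 0.0159 with 1 library left out. Same-numbered libraries deviated from their group means with correlations of −0.21, −0.31 and 0.19, so the numbers were not read as pairs. With the replicate block edgeR called 0 genes in all, 0 other Kupffer-enriched genes and 0 pan-macrophage genes, with 1027 lower genes at an unadjusted p under 0.05.

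Chosen after seeing the data, the median of the 16 macrophage genes as reference moved no relative level by more than the spread between libraries. Leaving out wild-type replicate 3 took the relative difference of Clec4f from −1.14 to −2.02. Depth limits Timd4 and Spic, with as few as 11 and 3 reads in a library.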

Other observations

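Folr2 was low in the third replicate of both groups, and the haemoglobin genes were too. The 4 haemoglobin genes Hba-a1, Hba-a2, Hbb-bs and Hbb-bt, carried by red blood cells, summed to 101.8, 87.6 and 27.1 CPM in wild-type and 108.6, 98.4 and 32.7 CPM in heterozygous replicates 1, 2 and 3. Alas2, the other gene of the blood list, was lowest in the third replicate of neither group. It measured 133.9, 115.4 and 132.8 CPM in wild-type and 185.1, 132.7 and 141.4 CPM in heterozygous livers. The mean of replicates 1 and 2 was 2.73-fold the level of replicate 3 for Folr2 in wild-type livers and 1.85-fold in heterozygous livers. The complement gene C6 and the ficolin gene Fcna, both in the list of Kupffer-enriched genes and not called, were lowest in the third replicate of both groups as well, with C6 at 420.4, 322 and 254 CPM in wild-type and 399.6, 425 and 242 CPM in heterozygous livers. Other genes of that list did not all follow this pattern. The genes shown here were singled out after their values were seen, and the part of blood content in the level of Folr2 was not tested.

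The low Clec4f level of wild-type replicate 3 was unusual within that library. Among the 12155 tested genes whose mean log2 CPM was 0 or more, only 2 lay at least 5-fold lower in wild-type replicate 3 than in each of the other wild-type libraries, Clec4f and Moxd1, which encodes a monooxygenase-like protein. Moxd1 had 117, 69 and 6 reads in the wild-type libraries and 69, 220 and 0 in the heterozygous ones, so it varied widely in both groups, unlike Clec4f with 74, 82 and 68 reads in the heterozygous libraries. The threshold was chosen after the values were seen.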
